A study of Mus musculus with 2 samples.

Results

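Border-associated macrophages are the resident macrophages of the perivascular spaces, the meninges and the choroid plexus of the brain. A fraction of them displays major histocompatibility complex (MHC) class II, the cell surface proteins that present extracellular peptides to CD4+ T cells. The border-associated macrophages with high RNA for MHC class II were examined here, in sorted cells of the adult mouse brain profiled by single-cell RNA sequencing. A barcode was taken as a border macrophage when it had at least 500 detected genes, at most 10% mitochondrial unique molecular identifiers (UMIs, the counted RNA molecules) and a UMI of at least 4 of the 10 markers Pf4, F13a1, Mrc1, Ms4a7, Lyve1, Cbr2, Cd163, Folr2, Cd209f and Clec10a. It was called class II high when H2-Aa, H2-Ab1, H2-Eb1 and Cd74 together exceeded 2000 counts per 1000000 UMIs of the cell (CPM), and class II low otherwise. The cells were thus chosen by the measured counts of these 14 genes, which support nothing below. This gave 89 class II high cells of 486 border macrophages, 12036 barcodes passing the cell filters and 17474 barcodes in all.

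Control cells were from adult Csf1rfl/fl mice, in which the gene of the receptor for CSF1 and IL-34 is floxed. Mutant cells were from adult Mrc1Cre:Csf1rfl/fl mice, with the same floxed alleles and a Cre recombinase driven from Mrc1, a gene of border macrophages and some other cells. Both libraries held cells of the whole brain sorted for mural cells and fibroblasts, endothelial cells, astrocytes, CD11bhiF4/80+ border macrophages and CD11b+F4/80hi microglia, so the shares of cell types also reflect the sort gates. There was 1 library per genotype, so no difference could be set against the spread between animals, no p-value exists, and every interval below covers counting error only.

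MHC class II molecules are made of an alpha and a beta chain. The invariant chain, encoded by Cd74, escorts them to endosomes, where cathepsins trim it and H2-DM exchanges its last fragment for a peptide. The coactivator CIITA switches on the class II genes together through a conserved promoter module that RFX, CREB and NF-Y proteins occupy. In mice the module lies just upstream of the start of each class II gene, and NF-Y reads the letters ATTGG in it.

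The promoters of the genes that define the class II high cells are shown because these genes are known to share this module. The RefSeq promoter table (GRCm38.p6) held no entry for H2-Ab1, Cd74 or Ciita, which are named only. The 120 bases before the start of H2-Aa (chr17:34287824-34287943, minus strand) and of H2-Eb1 (chr17:34305747-34305866, plus strand) read 5′ to 3′ as follows, with the letters GNAACT and ATTGG in capitals.
H2-Aa: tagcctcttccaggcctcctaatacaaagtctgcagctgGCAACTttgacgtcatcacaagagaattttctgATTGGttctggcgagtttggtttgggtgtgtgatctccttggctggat
H2-Eb1: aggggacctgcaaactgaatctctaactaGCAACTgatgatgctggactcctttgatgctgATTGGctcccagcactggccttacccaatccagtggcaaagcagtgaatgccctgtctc

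GCAACT began 81 bases before the H2-Aa start and ATTGG 48 bases before it, 33 bases apart. In H2-Eb1 they began 91 and 59 bases before the start, 32 bases apart. The pair was then searched on both strands as GNAACT followed 12 to 45 bases later by ATTGG on the same strand, in windows from 250 bases before to 50 after each start. The letters were chosen after these sequences had been seen, so the class II matches are a description. The pair was present in 482 of 32851 RefSeq windows (1.47%), ATTGG on either strand in 37.4% and GNAACT on either strand in 42.8%. Of the 26 windows of class II genes and their accessory genes, 4 held the pair (15.4%), those of H2-Aa, H2-Eb1, H2-DMb1 and H2-Eb2. Neither window of H2-DMa held it. A match is not a bound site, and no match says only that the letters are not in that window.

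The class II high cells numbered 48 of 348 border macrophages in the control (13.8%, exact Clopper-Pearson 95% interval 10.3 to 17.9) and 41 of 138 in the mutant (29.7%, 22.2 to 38.1). Their numbers were close in the 2 libraries, whereas the low cells numbered 300 and 97. Of all barcodes passing the filters, 5742 in the control and 6294 in the mutant, the high cells made up 0.836% (0.617 to 1.11) and 0.651% (0.468 to 0.883). The low cells made up 5.22% (4.66 to 5.83) and 1.54% (1.25 to 1.88). Among barcodes with microglia markers and at most 1 border marker, the same class II threshold was passed by 13 of 3815 in the control (0.341%) and 24 of 4189 in the mutant (0.573%).

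The class II level that chose the cells ran from 2008 to 61413 CPM in the control, with a median of 11974. It ran from 2117 to 57075 CPM in the mutant, with a median of 13456. The nearest cells below the threshold stood at 1956 CPM in control cells and 1839 CPM in mutant cells. The cells were few on both sides of it: 12 control and 5 mutant cells lay between 1000 and 2000 CPM, and 10 and 8 between 2000 and 4000 CPM. No UMI of the 4 genes was counted in 198 of 300 control and 51 of 97 mutant low cells.

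**Figure D1:**
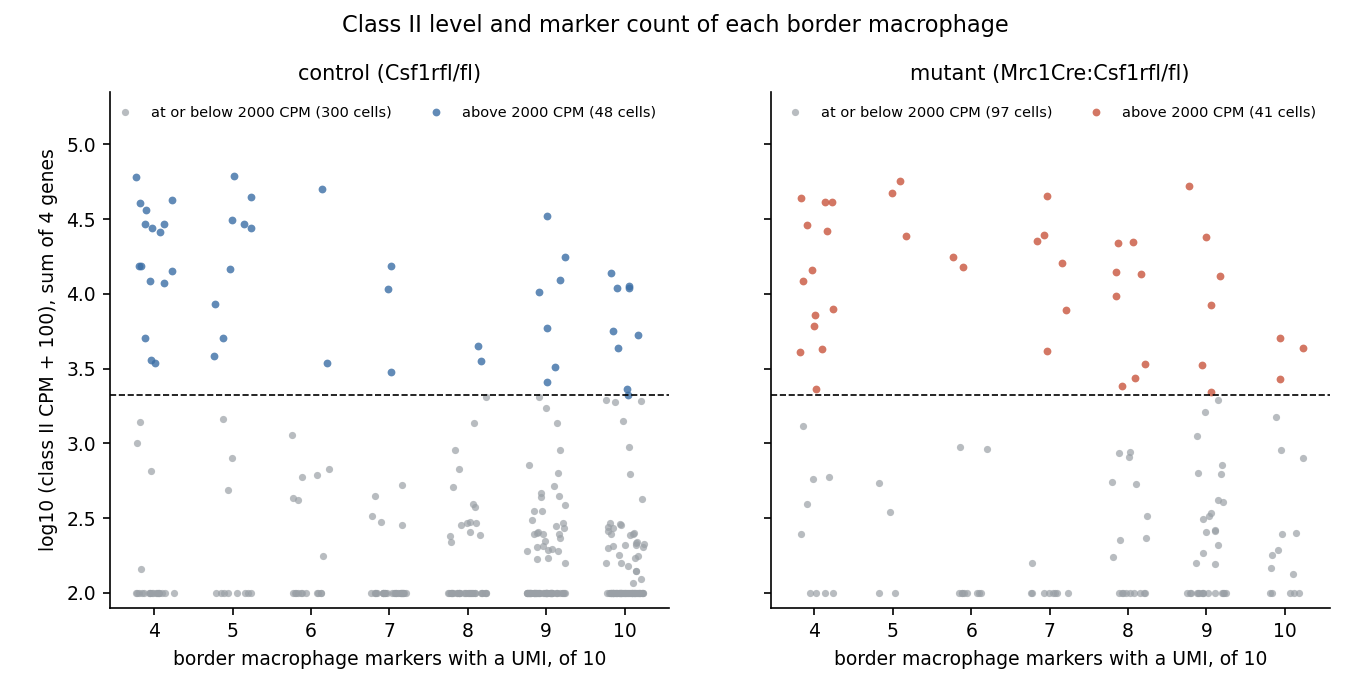
Each point is 1 border macrophage, with its number of border markers of 10 on the horizontal axis and the log10 of its class II level (summed CPM of 4 genes + 100) on the vertical axis, control on the left and mutant on the right. The dashed line is the 2000 CPM threshold. Of the 48 control cells above it 25 have only 4 or 5 markers, as have 16 of the 41 mutant cells.

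The plot of class II level by marker count shows how many markers each member had, and the members were split at 6 markers for description. High cells with 4 or 5 markers made up 25 of 48 control (52.1%, 37.2 to 66.7) and 16 of 41 mutant high cells (39.0%, 24.2 to 55.5), against 11.0% and 13.4% of low cells. High cells with 6 to 8 markers numbered 7 in the control and 16 in the mutant, and those with 9 or 10 markers 16 and 9, so the middle of the range was thinly filled in the control and as full as the 4 or 5 marker end in the mutant. High cells with 6 to 10 markers numbered 23 and 25 in all. Among border macrophages with 6 to 10 markers, the class II high share was 23 of 290 in the control (7.93%, 5.09 to 11.7) and 25 of 109 in the mutant (22.9%, 15.4 to 32.0).

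The label of border macrophage was carried unevenly by these subsets, and the marker count is part of the rule, so the levels of the 10 markers are a description. In Mrc1, the mannose receptor, the low cells with 6 to 10 markers held 4524 CPM in control cells and 3535 in mutant cells. The high cells with 6 to 10 markers held 3918 and 2647 CPM, and the high cells with 4 or 5 markers 667 and 489. Lyve1, the hyaluronan receptor of perivascular macrophages, stood at 657 and 879 CPM in the low cells with 6 to 10 markers, at 341 and 418 in the matching high cells, and at 0 in both libraries in the high cells with 4 or 5 markers. Both subsets of high cells thus lay below the low cells with 6 to 10 markers in Lyve1, and those with few markers had no count of it. Low cells with 4 or 5 markers held only 37.7 and 98.3 CPM of Lyve1, and 1664 and 2327 CPM of Mrc1. A low level of Lyve1 was thus not particular to high cells, and the part of the marker count in it was not tested.

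Markers of other cell types were counted in the same cells. At least 3 monocyte or dendritic cell markers were found in 19 of 48 control and 10 of 41 mutant high cells, and none in 11 and 11. None was found in 87 of 300 control and 38 of 97 mutant low cells. The median number was 2 and 1 in high cells and 1 and 1 in low cells, and the 90th percentile 5 and 5 against 3 and 3. These numbers were not taken at equal depth, and control high cells were deeper, with a median of 14447.5 UMIs against 7750. The monocyte list summed to 503 CPM in control and 544 CPM in mutant high cells, against 9.87 and 32.5 in low cells. Only 16 control and 9 mutant high cells had a UMI of it, and its members Chil3 and F10 were at 0 in both. The dendritic list summed to 186 and 250 CPM in high cells and 241 and 128 in low cells, with Xcr1, Ccr7 and Ffar2 at 0 in the high cells of both libraries.

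The microglia list summed to 7677 CPM in control and 5989 CPM in mutant high cells, and to 7415 and 5413 in low cells. The cell medians of the high cells were 4841 and 4496, against 27032 and 24769 in the barcodes with microglia markers. It exceeded the border list in 19 control and 11 mutant high cells. Choroid epithelium genes summed to 1365 CPM in control high cells and 13790.4 in mutant high cells, against 3141 and 24279.7 in low cells. Most of the mutant sum came from few cells, since the cell medians were 1402 and 1838 and 2 mutant high cells exceeded 10000 CPM. The part that any of these cell types plays in the results below was not tested.

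High cells with 4 or 5 and with 6 to 10 markers were then compared gene by gene. A gene was measured when its mean over the pools reached 20 CPM, and it was called when both libraries gave a ratio of 2 or more, or of 0.5 or less, with exact 95% intervals that excluded 1. Genes of the selection rule stayed out, as did sex-linked, haemoglobin, predicted, ribosomal protein and mitochondrial genes. Of 6348 measured genes, 96 (1.51%) were higher and 150 (2.36%) lower in high cells with 4 or 5 markers than in those with 6 to 10. Of 22 other genes known from border macrophages, none of which entered the rule, 18 were lower in the cells with few markers and 0 higher. The split used the count of rule markers, so a fall of genes that go with them is a description. Cell medians of this list were also lower in low cells with few markers, 39062 CPM against 64787 with 9 or 10 in the control. In mutant low cells the medians were 30752 and 55720 CPM, whereas the sums were 60634 and 49122. Low cells with few markers were shallower, with medians of 2561 against 9738 UMIs in the control and 4582 against 9517 in mutant cells.

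Among the lower genes of that list was Maf, a transcription factor of resident macrophages. In high cells with few markers it held 795 CPM against 1798 in the control and 687 against 2014 in mutant cells. Dab2, a clathrin adaptor of scavenging cells, held 326 against 1961 CPM in control cells and 387 against 2031 in mutant cells. Gas6, a ligand that bridges dying cells to phagocytes, held 90.7 against 647 CPM and 286 against 733. The scavenger receptors moved the same way, with 6 of 14 measured lower, among them Stab1 with 294 against 1541 CPM in control cells and 328 against 1402 in the mutant.

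As a pool, the high cells with few markers held the monocyte genes. Their median cell had no UMI of the monocyte list in either library. At least 3 monocyte or dendritic markers were found in 10 of 25 control and 5 of 16 mutant cells with 4 or 5 markers. With 6 to 8 markers 0 of 7 and 3 of 16 high cells had them. With 9 or 10 markers 9 of 16 and 2 of 9 did. Of 13 members of the monocyte list 6 were measured, and all 6 were higher in the pool with few markers. The mean of 20 CPM included this pool, and 0 members were measured among cells with 6 to 10 markers. The filter thus favoured members high in this pool, and the count is a description. Ccr2, the chemokine receptor by which monocytes leave the marrow, held 619 CPM against 45.5 in the control and 484 against 0 in mutant cells. S100a6, a calcium-binding protein, held 243 against 8.13 CPM and 244 against 0. Plac8 held 187 against 0 CPM and 203 against 0. Lsp1, an actin-binding protein of leukocytes outside that list, held 280 against 19.5 CPM and 240 against 32.2.

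Of 14 measured microglia genes 3 were higher in the cells with few markers. They were Sall1, a transcription factor of microglia, with 152 against 58.5 CPM in control cells and 115 against 7.15 in the mutant, Sparc with 825 against 218 and 577 against 215, and Slc2a5, a fructose transporter, with 93.4 against 30.9 and 60.0 against 7.15. The high cells with few markers thus held both monocyte and microglia genes as a pool. Their microglia list summed to 10714 CPM in the control and 6664 in the mutant. Low cells with 4 or 5 markers held more of it, 16841 and 9259 CPM, so it was not particular to high cells. The cell medians were 6270 and 4141 CPM in these high cells and 6248 and 5846 in these low cells. Depth differed, with medians of 12509 and 11186.5 UMIs in these high cells and 2561 and 4582 in these low cells. The monocyte list summed to 1217 and 1236 CPM in the high cells and to 5.39 and 16.4 in the low cells. None of the 11 measured accessory genes of class II presentation was called between high cells with few markers and the other high cells. H2-DMa held 504 CPM in the cells with few markers and 234 in the others in the control, and 429 and 386 in the mutant.

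**Figure D2:**
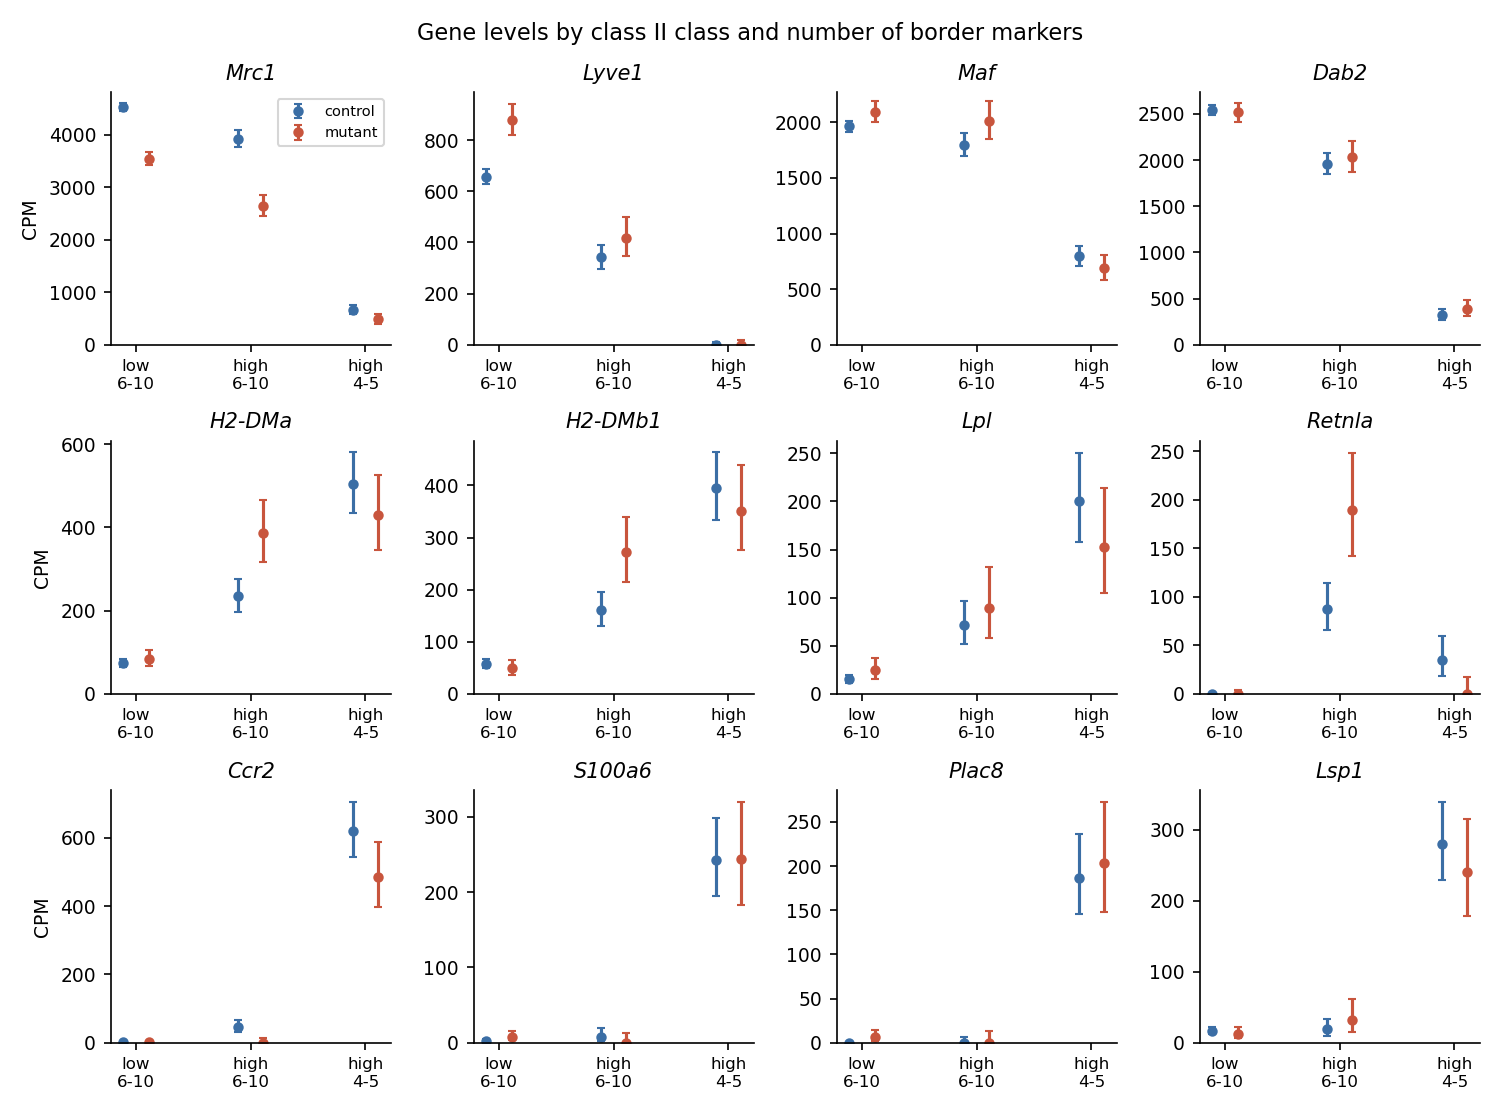
CPM with exact Poisson 95% intervals for 12 genes in low cells with 6 to 10 border markers, high cells with 6 to 10 and high cells with 4 or 5, control in blue and mutant in red. Lyve1 stands at 0 in the high cells with 4 or 5 markers in both libraries, while Ccr2 stands at 619 and 484 CPM there and at 45.5 and 0 CPM in the high cells with 6 to 10 markers. Low cells with 4 or 5 markers are not shown, and their Lyve1 level was 37.7 and 98.3 CPM.

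The class II high cells were next compared with the class II low cells as pools of 989852 UMIs against 3345032 in the control and 496432 against 985968 in mutant cells. The high cells had a median of 14447.5 UMIs in the control and 8695 in the mutant, and the low cells 7750 and 7959. Of 6482 measured genes 88 were called (1.36%), with 44 higher (0.679%) and 44 lower (0.679%) in the high cells of both libraries. The mean of 20 CPM was taken over the high and low pools together. A gene nearly absent from low cells could thus be measured through the high cells alone. When the comparison was restricted to cells with 6 to 10 markers, 14 of 6387 were higher (0.219%) and 46 lower (0.72%), of which 8 and 27 were among the genes of the whole comparison.

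The levels of the class II genes themselves follow from the rule. H2-Aa, an alpha chain (chr17:34282744-34287823), held 2993 CPM in high and 32.3 in low control cells, and 3817 and 25.4 in mutant cells. H2-Ab1, a beta chain, held 2361 against 22.4 CPM and 3175 against 28.4. H2-Eb1, a beta chain of the other isotype, held 2246 against 18.5 and 2764 against 16.2, and Cd74 5761 against 137 and 7407 against 170. The order of libraries was the same in all 4 genes, with the mutant above the control in high cells, but the ratios of 1.23 to 1.34 did not reach 2.

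Of 10 measured accessory genes of the class II pathway, 3 were higher in the high cells and 0 lower. Their median log2 ratio on the log2 (CPM + 1) scale was 0.32 in the control and 0.30 in the mutant, against -0.05 and -0.11 over all measured genes. These 3 were H2-DMa, H2-DMb1 and Ciita. The list held 18 genes, and those under the filter of 20 CPM are not counted. Ciita passed that filter only through the high cells, so the count and the median are a description.

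H2-DMa, the alpha chain of the peptide exchange factor (chr17:34119541-34139101), held 336 CPM in control high cells (301 to 375) and 405 in mutant high cells (351 to 465), against 79.2 and 99.4 CPM in low cells. The ratios were 4.25 (3.60 to 5.01) and 4.07 (3.18 to 5.24), and 46 of 48 control and 35 of 41 mutant high cells had a UMI. Its beta chain gene H2-DMb1 (chr17:34153072-34160230) held 250 against 56.5 CPM and 306 against 50.7, ratios of 4.42 (3.64 to 5.37) and 6.04 (4.36 to 8.49). Both chains of the exchange factor were higher in the high cells of both libraries, also among cells with 6 to 10 markers.

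Ciita, the gene of the class II coactivator (chr16:10480059-10528418), was sparse. It had 33 UMIs in 19 control high cells (33.3 CPM) and 27 UMIs in 16 mutant high cells (54.4 CPM), against 5 UMIs (1.49 CPM) and 0 UMIs in low cells. The control ratio was 22.3 (8.65 to 73.2). In the mutant the level was at least 17.9-fold higher, taken against a floor of 3 counts over the low pool. Among cells with 6 to 10 markers it held 17.9 against 1.58 CPM in control cells and 39.3 against 0 in the mutant. Its mean there was below 20 CPM, so it was not among the genes measured in that comparison.

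The enzymes that prepare the invariant chain and peptides did not reach the ratio. Ctss, the cathepsin that trims the invariant chain, held 2854 against 2044 CPM in control cells and 2679 against 1904 in mutant cells. Ifi30, a lysosomal thiol reductase, held 267 against 200 CPM and 272 against 212. Lgmn, an asparaginyl endopeptidase, held 1238 against 1331 and 1037 against 1073. Marchf1, a ubiquitin ligase that removes class II from the surface, held 298 against 256 and 268 against 255 CPM. Rfx5, Rfxank and Rfxap, the subunits of the RFX complex, and H2-Oa and H2-Ob, the chains that restrain H2-DM, lay under the filter.

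To see whether the step in these genes followed the class II level, border macrophages were binned by the summed class II level of the cell: 0, up to 500, up to 2000, up to 10000 and above 10000 CPM. H2-DMa stood at 64.1, 63.3, 189, 210 and 449 CPM over these bins in the control and at 70.5, 115, 131, 280 and 518 CPM in mutant cells. It was highest in the last bin in both. H2-DMb1 stood at 49.9, 59.0, 77.6, 105 and 378 CPM and at 58.3, 37.6, 62.6, 144 and 453 CPM. Ciita stood at 0.567, 0.855, 7.28, 10.7 and 53.5 CPM in control cells and at 0, 0, 0, 21.2 and 84.5 CPM in the mutant.

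Mrc1, like Lyve1 a gene of the selection rule, lay the other way. It stood at 4283, 4522, 4276, 3252 and 2184 CPM in control cells and 3392, 3521, 3484, 2081 and 1363 CPM in mutant cells. Marker count moved with the bins too, with medians of 9, 9, 8.5, 8 and 5 markers in the control. The mutant medians were 8, 9, 9, 8 and 6. The part of marker count in the levels over the bins was not tested. Lyve1 stood at 674 CPM in control cells with no class II UMI and at 183 above 10000, and at 1011 and 154 CPM in mutant cells. Csf1r, the floxed gene, stood between 1276 and 1746 CPM over the control bins and between 852 and 1169 over the mutant bins, with the last bin the lowest in each. The last 3 bins held 24, 18 and 30 control and 15, 18 and 23 mutant cells, so 3 of those 6 bins rest on fewer than 20 cells, and their median depth ran from 8158 to 26547.5 UMIs per cell.

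**Figure D3:**
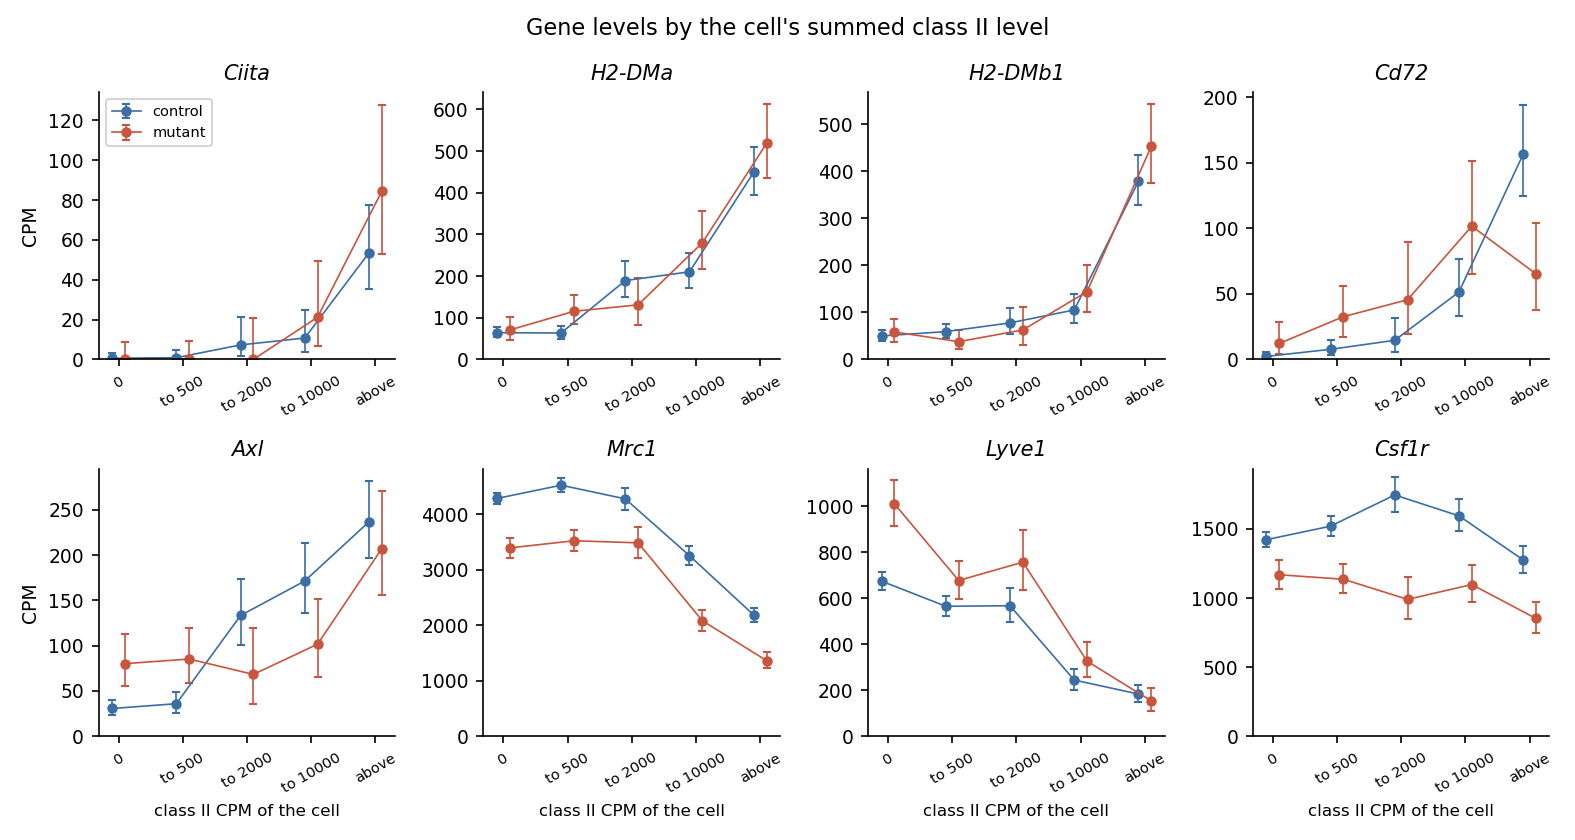
CPM with exact Poisson 95% intervals of 8 genes over bins of the cell's summed class II level, control in blue and mutant in red. H2-DMa, H2-DMb1 and Ciita are highest in the bin above 10000 CPM in both libraries. Mrc1 and Lyve1, genes of the selection rule, are lowest there, as is the median marker count (5 in control and 6 in mutant cells).

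Depth alone changes how many cells have a UMI of a gene, so each cell was also thinned to 2000 UMIs, which left out 1 of 48 and 1 of 41 high cells and 20 of 300 and 5 of 97 low cells. A UMI of H2-DMa was then found in 44.7% of control and 52.5% of mutant high cells, in 12.5% and 18.5% of low cells, and in 30.5% and 35.5% of 600 barcodes with microglia markers drawn per library. Ciita was found in 3 of 47 control high cells (6.38%, 1.34 to 17.5) and 4 of 40 mutant high cells (10%, 2.79 to 23.7). Before thinning it was found in 39.6% and 39.0%. After thinning it was found in 2 of 280 control low cells (0.714%, 0.0866 to 2.56) and in 0 of 92 mutant low cells (upper 95% limit 3.93%). Of 600 sampled barcodes with microglia markers 0 and 1 had it. Lyve1, a gene of the selection rule given as a description only, was found in 25.5% and 27.5% of high cells and in 52.5% and 55.4% of low cells. For H2-DMa and Ciita the order of high and low cells was the same as in the pools, but the Ciita intervals of high and low cells overlapped in both libraries.

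Outside the class II pathway, Slamf7, Plbd1 and Clec4b1 were among the leading genes. Slamf7, an activating receptor of leukocytes, had 29.3 CPM against 1 UMI in control low cells, a ratio of 98.0 (16.25 to 4003), and was at least 17.2-fold higher in the mutant (52.4 CPM against 0). Like Ciita, it passed the filter on the mean only through the high cells. Plbd1, a phospholipase B-like protein of myeloid granules, held 69.7 against 2.99 CPM and 107 against 17.2. Clec4b1, a C-type lectin receptor, held 42.4 against 4.19 CPM in control cells, a ratio of 10.1 (5.43 to 20.1), and 103 against 12.2 in the mutant, a ratio of 8.44 (4.44 to 17.4).

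The remaining leading genes were Lsp1 (ratios of 7.06 and 10.1), the leukocyte fatty acid hydroxylase Cyp4f18 (14.2 and 7.61), Glipr1 (6.16 and 5.96) and the membrane protein gene Ms4a4c (5.45 and 3.97). Col14a1, a fibril-associated collagen, held 80.8 against 9.87 CPM in control cells and 70.5 against 17.2 in mutant cells. Lpl, lipoprotein lipase, held 120 against 15.8 CPM, a ratio of 7.59 (5.45 to 10.7), and 117 against 24.3, a ratio of 4.80 (2.94 to 8.08). Lpl and Col14a1 were also called among cells with 6 to 10 markers, whereas Slamf7, Plbd1, Clec4b1 and Lsp1 were not. The difference between the comparisons was not tested.

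Of 10 measured genes of lipid handling and disease-associated microglia 3 were higher, Lpl, Lgals3 and Clec7a, and 0 lower, with a median log2 ratio of 0.65 and 0.64. Among cells with 6 to 10 markers 1 of 9 measured genes was called, Lpl, and the median was 0.14 and 0.29. Clec7a, the beta-glucan receptor dectin-1, held 186 against 68.2 CPM in control cells and 236 against 97.4 in mutant cells. Lgals3, galectin-3, held 80.8 against 1.79 CPM and 125 against 12.2. Axl, a receptor for Gas6 on phagocytes, held 206 against 45.1 CPM in control cells and 157 against 80.1 in the mutant, where the ratio of 1.96 missed the rule. Apoe, the most abundant gene of the list, held 42049 against 44953 CPM and 34452 against 36610.

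Of 12 measured chemokine genes 4 were higher in the high cells, Ccl4, Ccl5, Cxcl9 and Cxcl16, and 0 lower, with a median log2 ratio of 0.51 and 0.49. Cxcl16, a membrane-bound ligand and scavenger of oxidised lipid, held 149.5 against 49.6 CPM in control cells and 153 against 75.1 in mutant cells. Ccl4, an inflammatory chemokine of macrophages, held 65.7 against 15.8 CPM and 54.4 against 18.3. Ccl5 and Cxcl9 rested on single cells, since 1 cell held 72.3% of the control and 65.0% of the mutant Ccl5 UMIs of the high cells, and 1 cell held 80.8% of the mutant Cxcl9 UMIs. None of the 10 chemokine genes measured among cells with 6 to 10 markers was called.

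Ccr2 led the chemokine receptors, at 263 CPM in control and 212 CPM in mutant high cells, against 1.49 and 1.01 in low cells. Only 15 control and 5 mutant high cells held its UMIs, so most class II high cells had none. After thinning, 29.8% and 10% of high cells had a UMI, and 1.5% and 4% of the barcodes with microglia markers. Of low cells 0 of 280 and 0 of 92 had one, with upper 95% limits of 1.31% and 3.93%. The other 5 measured receptors were not called. With 6 to 10 markers 0 of 5 measured receptors were called.

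Retnla, a secreted protein of alternatively activated macrophages, had no UMI in low cells. It held 67.7 CPM in the control from 4 cells and 107 CPM in the mutant from 2 cells, at least 75.5-fold and 35.1-fold higher. One of those cells held 76.1% of the control UMIs and another 67.9% of the mutant UMIs. Retnla was called among cells with 6 to 10 markers too, with 87.8 and 190 CPM against 0 and 0.

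MHC class I genes carry peptides of the cell's own proteins, and of 13 measured 1 was higher, H2-Q7. It held 46.5 against 22.7 CPM in control cells and 84.6 against 15.2 in the mutant, and its counts are uncertain because near-identical neighbouring genes can share its reads. H2-K1, a classical class I chain, held 931 against 642 CPM and 1132 against 762, and B2m, the shared light chain, 2025 against 1782 and 2093 against 1775. The median log2 ratio of the list was 0.33 and 0.32. Of 10 measured genes of costimulation and adhesion 1 was higher, Cd72, a receptor of B cells and macrophages, with 107 against 5.68 CPM in control cells, a ratio of 18.9 (11.5 to 32.6), and 82.6 against 26.4 in mutant cells, a ratio of 3.13 (1.87 to 5.33). Cd86, a CD28 ligand, held 415 against 495 CPM and 367 against 401, and Cd83 197 against 112 and 201 against 119. Among cells with 6 to 10 markers 0 of 10 measured costimulation and adhesion genes were called.

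Of 13 measured C-type lectin genes 3 were higher, Clec4b1, Clec7a and Klra2, and 1 lower, Cd209g. Klra2, a lectin receptor of the Ly49 family, held 75.8 against 3.29 CPM in control cells and 36.3 against 10.1 in mutant cells. Among cells with 6 to 10 markers 0 of 12 measured lectin genes were called. Of 15 measured complement and Fc receptor genes 1 was higher, Fcgr4, an activating Fc receptor, with 39.4 against 16.7 CPM in control cells and 62.4 against 13.2 in mutant cells. It was also called among cells with 6 to 10 markers. Of 16 measured transcription factors 1 was higher, Batf3, a factor of dendritic cells, with 30.3 against 8.37 CPM and 34.2 against 8.11. Spi1, the myeloid factor PU.1, held 361 against 351 and 367 against 345 CPM. With 6 to 10 markers 0 of 15 measured transcription factors were called.

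**Figure D4:**
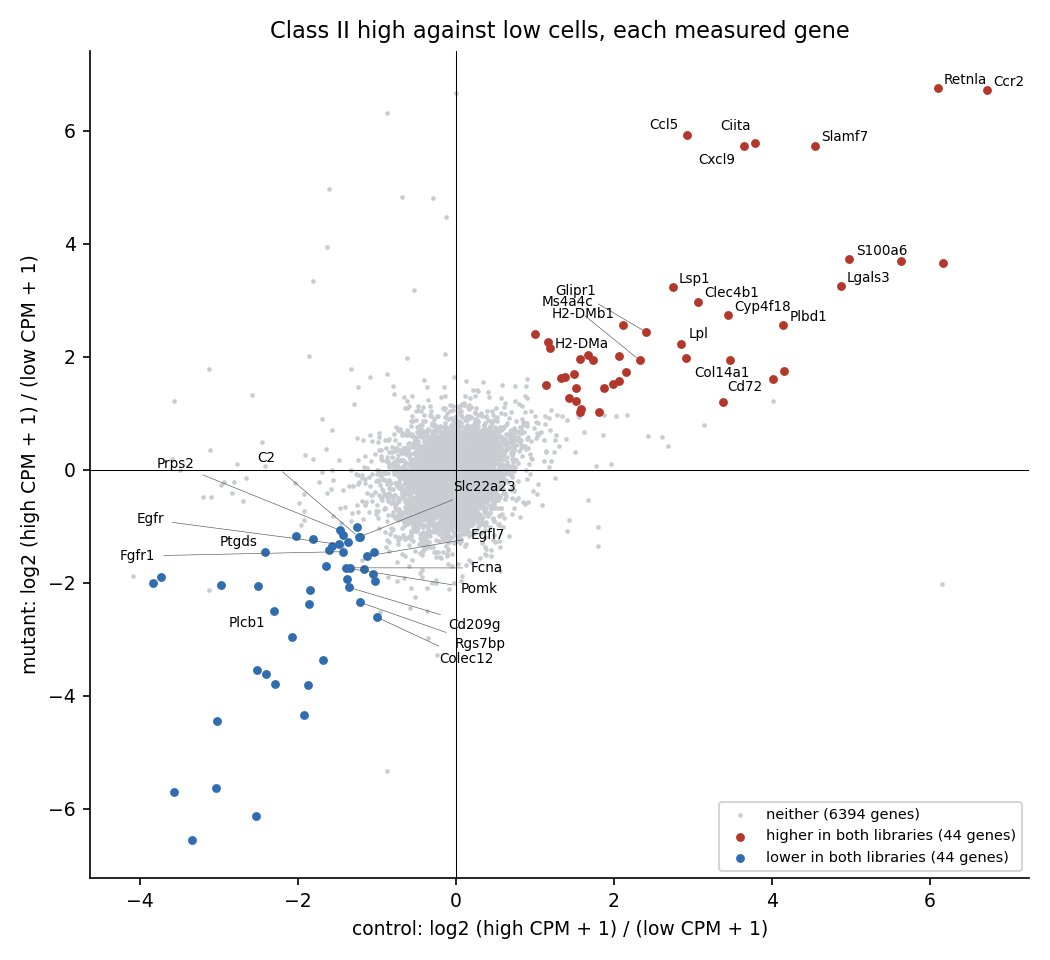
Log2 ratio of high to low cells for 6482 measured genes (CPM + 1), control on the horizontal and mutant on the vertical axis, with the 44 genes higher in both libraries in red and the 44 lower in both in blue. Ccr2, Retnla and Slamf7 lie at the far upper right, H2-DMa and H2-DMb1 nearer the centre, and thin lines lead to crowded labels.

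The genes lower in the high cells included parts of the border macrophage set and genes of other brain cells. Of 22 other border macrophage genes 2 were lower and 0 higher, with a median log2 ratio of -0.45 and -0.70. Among cells with 6 to 10 markers 1 of 22 was lower and 0 higher, and the median was only -0.07 and -0.18. Fcna, the lectin ficolin A of the complement pathway, held 46.5 against 119 CPM in control cells, a ratio of 0.390 (0.281 to 0.530), and 80.6 against 271 in the mutant, a ratio of 0.298 (0.208 to 0.416). It was also called among cells with 6 to 10 markers. Colec12, a scavenger receptor with a collectin domain, held 188 against 377 and 56.4 against 350 CPM, ratios of 0.499 and 0.161.

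Cd209g, a C-type lectin related to DC-SIGN, held 45.5 against 118 CPM and 14.1 against 62.9. The growth factor receptor genes Egfr (44.5 against 126 and 24.2 against 61.9 CPM) and Fgfr1 (11.1 against 31.7 and 20.1 against 56.8) were lower as well. So were Plcb1, a phospholipase C of receptor signalling, with ratios of 0.193 and 0.171, and Pomk, a kinase of glycan chains, with 0.370 and 0.288. Rgs7bp (0.427 and 0.187), Egfl7 (0.452 and 0.331), Prps2 (0.354 and 0.467) and Slc22a23 (0.417 and 0.426) completed the leading genes with the complement gene C2 (0.417 and 0.426). After thinning, the ratio of Fgfr1 in control cells was 1.19, and those of Egfr and Slc22a23 in mutant cells were 1.15 and 1.53, on the other side of 1.

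Ptgds, prostaglandin D synthase of the meninges and choroid plexus, held 60.6 against 327 CPM in control cells and 113 against 311 in mutant cells. Of the astrocyte list 2 of 6 measured genes were lower, with a sum of 159 against 500 CPM in control cells and 169 against 671 in mutant cells. The oligodendrocyte list summed to 98.0 against 318 CPM in control cells and 155 against 92.3 in mutant cells. Few cells carried the larger sums: the highest low cell held 14489 CPM of the astrocyte list in the control and 22691 in the mutant, and 24264 CPM of the oligodendrocyte list in the control. The median cell held 144 CPM of the astrocyte list in high and 226 in low control cells, and 65.1 in high and 0 in low mutant cells, so in the mutant the medians lay the other way from the sums. The oligodendrocyte medians were 78.1 and 71.5 CPM in control and 52.7 and 0 in mutant cells. The part of RNA from these cells in the lower genes was not tested.

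The loxP-flanked gene itself was then examined. Csf1r (chr18:61100598-61132149) held 1426 CPM in control and 969 CPM in mutant high cells, a ratio of 0.679 (0.611 to 0.754). In low cells it held 1497 and 1124 CPM, a ratio of 0.751 (0.703 to 0.802). Neither ratio reached the rule of 0.5. Counts from the 3′ end do not show whether the floxed part was lost, so they do not check the deletion. Of the ligand genes, Csf1 held 9.09 and 4.03 CPM in high cells, and Il34 had no UMI in the high cells of either library.

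Between mutant and control high cells, 336 of 6353 measured genes were called (5.29%), 170 higher (2.68%) and 166 lower (2.61%) in the mutant, each judged on 1 library against 1. The class II genes of the rule and the 11 measured accessory genes gave 0 calls, and the median log2 ratio of the accessory genes was -0.09 against -0.08 over all measured genes.

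Of 13 measured chemokine genes 6 were higher in the mutant and 0 lower, with a median log2 ratio of 0.43 in high and 0.48 in low cells. Ccl2, the CCR2 ligand that draws monocytes, held 31.3 CPM in control and 173 CPM in mutant high cells, a ratio of 5.53 (3.63 to 8.63). The ratio was 2.45 in low cells and 6.60 in high cells with 6 to 10 markers. Ccl7, another CCR2 ligand, held 42.4 and 153 CPM (3.61, 2.44 to 5.39), and 1.62 was its ratio in low cells. Ccl12 held 305 and 802 CPM (2.63, 2.26 to 3.06), with a ratio of 1.93 in low cells.

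Ccl8 held 84.9 CPM in control and 451 CPM in mutant high cells, a ratio of 5.32 (4.12 to 6.92), and its ratio in low cells was 9.11. The other called chemokines, Ccl5 and Cxcl10, rested on single mutant cells, which held 65.0% and 85.0% of the UMIs. Whether the ratios of high and low cells differ was not tested. In the high cells of both libraries, Ccl2, Ccl8 and Ccl24 were lower among cells with 4 or 5 markers than among those with 6 to 10.

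Of 19 measured genes of the type I interferon list 6 were higher in mutant high cells and 0 lower, with a median log2 ratio of 0.46 in high and 0.25 in low cells. Ifit2, an RNA-binding antiviral protein, held 33.3 and 167 CPM, a ratio of 5.02 (3.31 to 7.75), with a ratio of 1.08 in low cells. Rsad2, the antiviral enzyme viperin, held 15.2 and 76.5 CPM (5.05, 2.71 to 9.88), and Mx1 22.2 and 62.4 CPM. One mutant cell held 39.8% of the Ifit2, 36.8% of the Rsad2 and 35.5% of the Mx1 UMIs, so few cells carried much of the signal of these genes. Counts of Ifit3 and Ifit3b, also called, are uncertain because the genes are nearly identical.

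Of 12 measured genes of the interferon gamma list 3 were higher, Irf1, Iigp1 and Cxcl10. Irf1, a transcription factor induced by interferon gamma, held 32.3 and 74.5 CPM, a ratio of 2.31 (1.40 to 3.82), with 1.19 in low cells and no more than 18.9% of mutant UMIs in 1 cell. Iigp1, an interferon-inducible GTPase, held 38.4 and 123 CPM, with 44.3% of the mutant UMIs in 1 cell.

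The other leading genes were ranked by the interval bound nearer to 1. Ccnd2, cyclin D2, held 37.4 and 135 CPM in high cells, a ratio of 3.61 (2.38 to 5.55), and its ratio in low cells was 2.42. Dcp1a, a decapping factor of messenger RNA, held 8.08 and 46.3 CPM (5.73, 2.47 to 14.8), with 0.857 in low cells. Pdgfa, a platelet-derived growth factor chain, held 19.2 and 56.4 CPM (2.94, 1.58 to 5.57), with 1.54 in low cells.

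Nsun6, Zswim7, Morn2, Cdk5 and Isca1 were called with ratios between 3.37 and 4.59, from 9 to 16 UMIs in the control, and their ratios in low cells ran from 0.503 to 1.60. After thinning, the Morn2 ratio in high cells was 0.588, on the other side of 1. Clec4b1 held 42.4 and 103 CPM (2.42, 1.58 to 3.73), with 2.91 in low cells. Ccr2 held 263 and 212 CPM, a ratio of 0.805.

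Of 14 measured scavenger genes 1 was lower in the mutant high cells, Colec12, and of 12 iron and haem genes 1, Slc40a1. Colec12 held 188 CPM in control and 56.4 CPM in mutant high cells, a ratio of 0.300 (0.194 to 0.448), and 0.929 in low cells. Cd38, an NAD-consuming surface enzyme, held 174 and 66.5 CPM (0.383, 0.255 to 0.558), with 0.781 in low cells. Slc40a1, the iron exporter ferroportin, held 278 and 121 CPM (0.435, 0.323 to 0.577), with 0.860 in low cells. Of the selection markers, Cd163, the haemoglobin scavenger receptor, held 323 and 64.5 CPM, a ratio of 0.199 (0.134 to 0.287), and 0.503 in low cells.

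Among the leading lower genes by the counting interval were Alcam (80.8 and 10.1 CPM, ratio 0.125), Fgf13 (182 and 36.3 CPM, 0.199), Prkg1 (221 and 46.3 CPM, 0.209), Cacnb2 (0.279), Cr1l (0.290), Negr1 (0.309), Ptprm (0.326) and Rad51b (0.350). The Alcam ratio was 1.26 when cells with 3 markers were taken in. Alcam is an adhesion molecule, Prkg1 a cGMP-dependent kinase and Cr1l the complement regulator Crry. Of these, Rad51b had a ratio of 0.232 in low cells, and in the rest the low cell ratios ran from 0.697 to 1.57. Depth moved with genotype here: high cells with 9 or 10 markers had a median of 33423.5 UMIs in the control and 9320 in mutant cells. The part of depth in these genes was not tested.

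**Figure D5:**
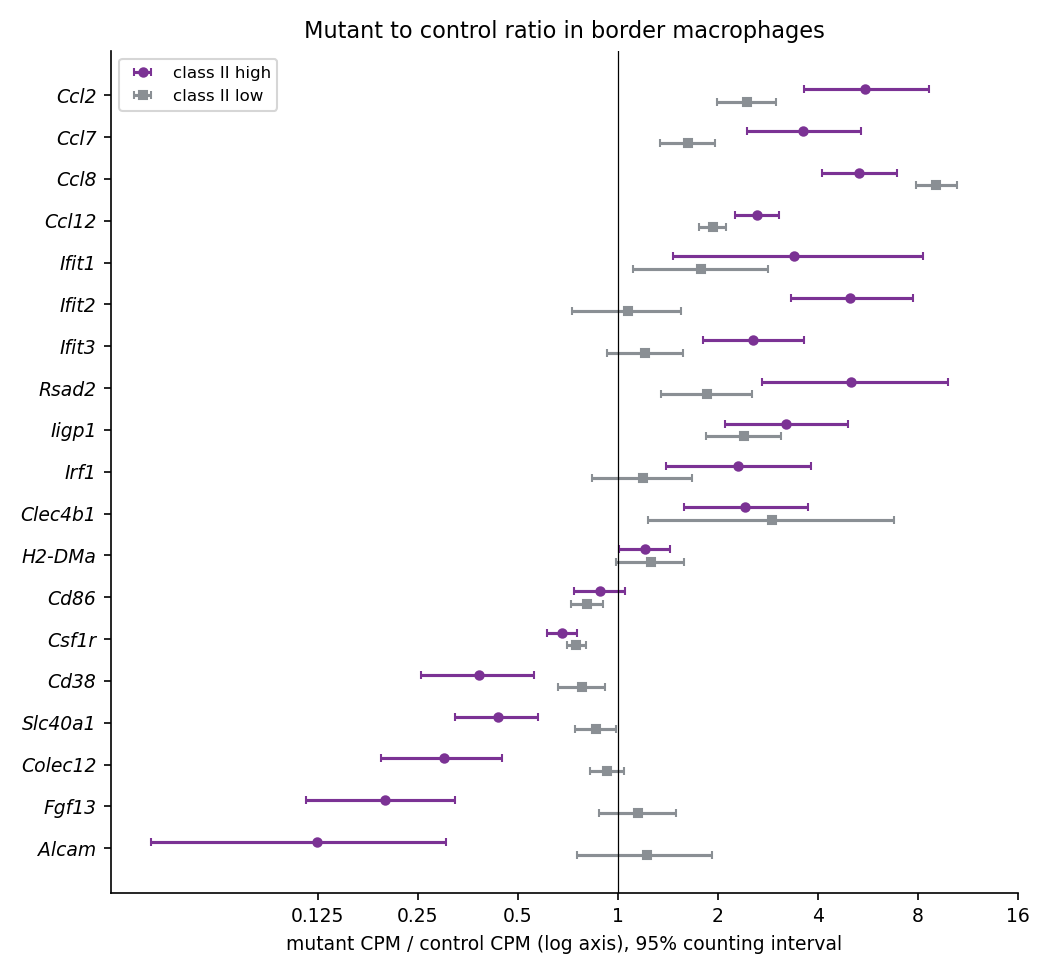
Mutant to control ratio of CPM (log axis) with exact conditional 95% intervals for 19 genes, in class II high cells (purple circles) and class II low cells (grey squares). Ccl2, Ccl7, Ccl8 and Ccl12 lie right of 1 in both, whereas Alcam, Fgf13 and Colec12 lie left of 1 in high cells with low cell ratios of 1.22, 1.15 and 0.929.

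Markers of other cell types differed between the libraries. All 4 measured choroid epithelium genes were higher in the mutant high cells, with a median log2 ratio of 4.17, and the median was 3.43 in low cells. Few cells carried these pooled ratios. The cell medians of the list were 1402 CPM in control and 1838 in mutant high cells, and 2219 and 2420 in low cells. The highest mutant cell held 163644 CPM among high and 258042 among low cells. Of 14 measured microglia genes 1 was lower, Tmem119, a microglial membrane protein, with 260 and 127 CPM, and the median log2 ratio was -0.52 in high and -0.60 in low cells. The T and NK cell list summed to 1.01 CPM in control and 163 CPM in mutant high cells, where 2 cells held at least 3 of its markers. The part of these cells in the genotype ratios was not tested.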

How the data were processed

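Per the labels' protocols, cells of the adult mouse brain were sorted and libraries were made with 10x Next GEM 3′ v3.1 chemistry. The matrices deposited by the authors hold raw UMI counts per gene and barcode for 26033 genes, written by Cell Ranger 7.1.0 per the file headers. The submitters' processing notes name the builds GRCm38.p6 and mm10. How introns, empty droplets and free RNA were handled is not stated in the labels or headers. Of all barcodes, the 8739 control and 8735 mutant barcodes shared 17 barcode strings, 0 of them among the class II high cells.

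For each library and class, UMIs of a gene were summed and scaled to CPM of the pool, with exact Poisson 95% intervals. Ratios carry exact conditional intervals, and shares Clopper-Pearson intervals. A pool at 0 UMIs was set at a floor of 3 counts for lower bounds. No normalisation other than division by totals was used, and no test was run because cells of 1 library are not replicates. Doublets were scored with Scrublet (scanpy 1.11.5). Its automatic threshold marked 0.0522% of barcodes in the control library, where it did not work, and 1.84% in the mutant library. In both, the top scores up to the expected rate of 0.008 per 1000 barcodes were therefore marked in its place (6.79% and 6.05%). These included 3 of 48 and 4 of 41 class II high cells, which were kept and left out as an alternative. The counting and ratio code was tested on simulated data. Python 3.11.15, numpy 2.4.6, scipy 1.17.1, pandas 2.3.3 and matplotlib 3.10.9 were used.

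The members and the gene lists were chosen with earlier results of these data known. Genes were named by rule. For high against low, they were the 12 highest and 12 lowest called genes with a UMI in at least 20% of cells of the higher class in both libraries, by the ratio nearer to 1. For mutant against control, they were the 10 highest and 10 lowest with a UMI in at least 20% of cells of the higher library and at most 25% of that library's UMIs in 1 cell, by the interval bound nearer to 1. Genes of the selection rule and the leading and most abundant members of each list were named too. Some genes that these rules name are not reported here. Alternatives changed the marker minimum, class II threshold, filters, scaling, fold, depth, doublets and cells with other markers. Gene locations are from GENCODE on GRCm38, and promoters from RefSeq.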

Additional observations from a re-analysis of the deposited data

Results flagged for a closer look

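In 10 of 6482 measured genes the high to low ratio passed the size rule in opposite directions in the 2 libraries, 3 higher in control high cells and 7 higher in mutant high cells, and 3 of them are given here. Alcam had a high to low ratio of 3.60 in the control and 0.368 in the mutant. The control value came from high cells with 4 or 5 markers, at 200.1 CPM. Among control cells with 6 to 10 markers the ratio was 0.389 (8.13 against 20.9 CPM), the same direction as in the mutant, where 1 cell held 60% of 5 UMIs. Fgf13 had ratios of 2.68 and 0.464, with 1.37 among control and 0.107 among mutant cells with 6 to 10 markers. Ccn1, an immediate early matrix protein gene, had ratios of 0.386 and 3.72. The difference between the libraries was not tested.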

How the results depend on the processing

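The class II high share of control border macrophages, 13.8%, was 7.93% with at least 6 markers, 18.5% with a 5% mitochondrial limit, 9.52% without cells with 2 or more monocyte or dendritic markers and 9.97% without cells in which the microglia list exceeded the border list. The mutant share ran from 22.9% to 34.6% over the alternatives. The number of genes called between high and low cells, 88, was 47 after thinning, 150 at a mean of 5 CPM, 154 with no filter and 197 at a fold of 1.5. The number between mutant and control high cells, 336, was 189, 776, 828 and 743 in the same order. Of its 170 higher and 166 lower genes, 27 and 22 were called again after thinning and 44 and 82 with at least 6 markers. Without cells with 2 or more monocyte or dendritic markers 23 and 37 were, and with at least 1000 detected genes 168 and 165. The genotype genes named above thus depend on which cells were taken and on depth. Without cells with 2 or more monocyte or dendritic markers, 57 genes were higher and 47 lower in high cells, of which 25 and 8 were among those reported. Of 973 values of named genes under the alternatives, 848 stayed within the reported 95% interval, 120 left it in the same direction from 1, and 5 changed direction: Alcam between mutant and control (1.26 with at least 3 markers) and, after thinning, Fgfr1 between high and low control cells (1.19), Egfr (1.15) and Slc22a23 (1.53) between high and low mutant cells, and Morn2 between mutant and control (0.588). An alternative chosen after seeing the data, without cells with T, NK, B or choroid markers, gave 41 higher and 46 lower genes between high and low cells, and 149 and 132 between mutant and control. No paired analysis was possible because each genotype had 1 library. The limit of 20 CPM is a chosen filter, and genes below it rest on few UMIs.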

Other observations

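Immediate early and stress genes, which can rise during tissue dissociation, gave 0 calls of 18 measured between class II high and low cells, with a median log2 ratio of -0.22 in the control and 0.50 in the mutant. Fos held 204 CPM in high and 229 in low control cells, and 220 and 102 in mutant cells. Of 7 measured cytokine genes 0 were called between high and low cells. Il1b, the gene of interleukin 1 beta, held 63.6 against 2.99 CPM in the control and 20.1 against 8.11 in the mutant, and was lower in mutant than in control high cells (ratio 0.316, 0.145 to 0.621), from 9 control and 5 mutant cells. Iron and haem handling gave 0 calls of 12 measured genes between high and low cells, among them Fth1, ferritin heavy chain, with 5597 against 4964 CPM in the control and 6001 against 4880 in the mutant.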
